A study of Caenorhabditis elegans with 16 samples.

Results

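The comparison described here set whole-body RNA of germline-less glp-1 worms fed RNAi against mml-1 beside that of the same worms fed the control RNAi, labelled Luc. It took 8 of the 16 libraries of the series, the 4 labelled mml-1 RNAi and the 4 labelled Luc, chosen by their labels and by no measured value. Both groups were Caenorhabditis elegans on day 1 of adulthood, grown at 20 °C and fed HT115(DE3) bacteria with the L4440 vector. Both carried the glp-1 genotype in the TU3401 background and are named as strain SHU47 by the labels, which give no allele. Their treatment label is simml-1 in the first group and a dash in the second. The remaining libraries were 4 of glp-1 worms on mxl-2 RNAi and 4 of TU3401 worms, which have a germline, on Luc RNAi. They appear below only as values set beside a gene.

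MML-1 is the worm member of the Mondo family of basic helix-loop-helix transcription factors, and MXL-2 is its Mlx-type partner. In mammals the family (MondoA and ChREBP) responds to sugar phosphates and regulates genes of sugar and lipid use, and in worms both proteins are needed for the long life of animals without a germline. In TU3401 the channel that takes up double-stranded RNA, SID-1, is present only where the neuronal unc-119 promoter drives it, so feeding RNAi acts mainly in neurons. The RNA came from whole animals, so a gene measured here may have changed in any tissue, and in such bulk RNA fewer cells of a type and less RNA per cell cannot be told apart.

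The values were RPKM, reads scaled to gene length and to the size of the library, so each is a share of its library. The reads behind them could be recovered, and totals ran from 21303724 to 27228111 reads in the control and from 19263484 to 25139007 in the libraries labelled mml-1 RNAi. Germline transcripts were near 0 in both groups: of 32 germline and oocyte genes 10 reached a mean of 1 RPKM, and the whole list summed to 29.8 to 45.02 RPKM in the control and 27.95 to 42.8 RPKM on mml-1 RNAi. The target gene was not lower where it was labelled as targeted. Its own gene, mml-1, was read at 35.2, 23.95, 11.9 and 11.2 RPKM in the control, replicates 1 to 4, and at 23.8, 91.5, 28.9 and 22.9 RPKM on mml-1 RNAi, and mxl-2 was at 308.3 RPKM in mml-1 RNAi replicate 3 against 20.99 to 30.3 RPKM in the other 7 libraries. The libraries labelled mxl-2 RNAi held 29.3, 90.7, 733 and 47.4 RPKM of mxl-2. The control and mml-1 RNAi groups overlapped for both. For mml-1 there was a log2 fold change of 0.88 (95% interval -0.10 to 1.86, adjusted p = 0.312 in limma), with 3 of 4 pairs higher. For that reason the groups are called by their labels throughout. The labels do not say whether replicates were separate cultures, and p-values then reflect nothing but how these particular libraries spread, which may be technical.

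Most of the variation among the 8 libraries followed the replicate number and not the RNAi. Component 1 held 35.4% of the variance and component 2 held 20.8%, and the replicate number accounted for 91.2% and 99.2% of them. The RNAi group accounted for 83.9% of component 3, which held 16.7% of the variance. On that component the control libraries 1 to 4 scored -25.28, -21.88, -10.28 and -3.70, and the libraries labelled mml-1 RNAi scored 11.9, 18.5, 19.6 and 11.2. The groups were therefore separate on component 3, and control replicate 4 lay nearest to the other group. For the median gene the replicate number held 65.8% of the variance and the group 8.7%. The replicate number has 4 values and the group 2, so noise alone would also give the replicate number the larger share.

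**Figure D1:**
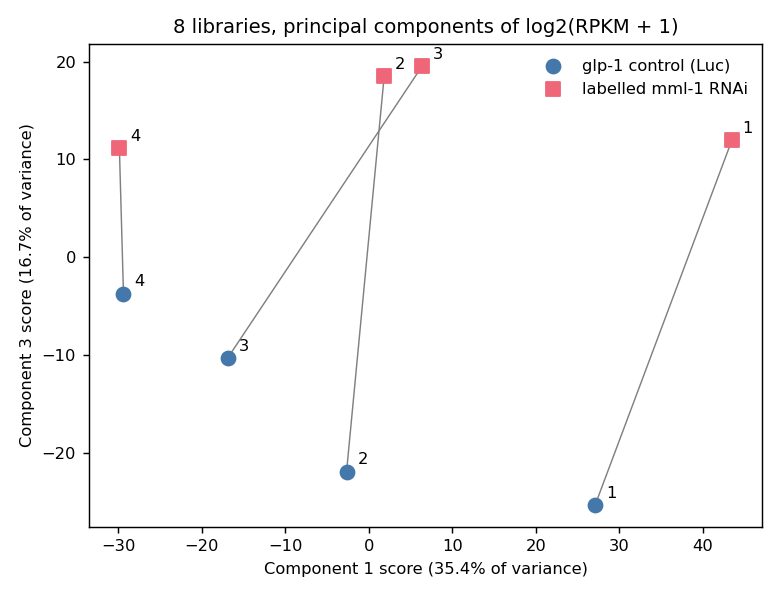
Scores of the 8 libraries on principal component 1 (x axis, 35.4% of the variance) and component 3 (y axis, 16.7%), with a line joining the control (blue circles) and mml-1 RNAi (red squares) libraries of the same replicate number. Pairs 2 and 4 lie close together along component 1, pairs 1 and 3 lie farther apart, and the groups separate along component 3.

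The groups were compared with the replicate number as a block, so that each mml-1 RNAi library was set against the control of its own number. Genes needed a mean of at least 1 RPKM over the 8 libraries, and a gene is said to have risen or fallen where limma's Benjamini-Hochberg adjusted p was under 0.05. All fold changes are on the log2(RPKM + 1) scale, which understates those of low genes. Of 12591 tested genes and loci, 60 were called (0.477%), 14 higher (0.111%) and 46 lower (0.365%). All 14 that rose and all 45 genes that fell moved the same way in 4 of 4 pairs, as did 3452 of all 12591 tested. The calls were made from these same pairs, so their agreement is nearly given by the call and is a description only. The remaining call was a piRNA locus, which rested on 5 reads in the control and 0 in the mml-1 RNAi libraries. The differences were moderate: the median log2 fold change was 0.96 among genes that rose and -0.94 among those that fell, and 6 and 21 of them reached 2-fold. The median over all tested genes was -0.0049. At an unadjusted limma p under 0.05 there were 2354 genes (18.7%), 914 higher (7.26%) and 1440 lower (11.4%). The 4 libraries of a group lay entirely above or below those of the other in 598 genes (4.75%), 269 higher (2.14%) and 329 lower (2.61%), and 8 of the 14 genes that rose and 26 of the 45 that fell were among them.

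The calls rested on the pairing and on every pair but the last. Without the block 0 genes were called higher and 2 lower (0.0159%), slcf-2 and the piRNA locus, with 985 at an unadjusted limma p under 0.05. When either library of pair 1, 2 or 3 was left out, 0 or 1 gene was called, and when a library of pair 4 was left out 245 or 246 were.

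**Figure D2:**
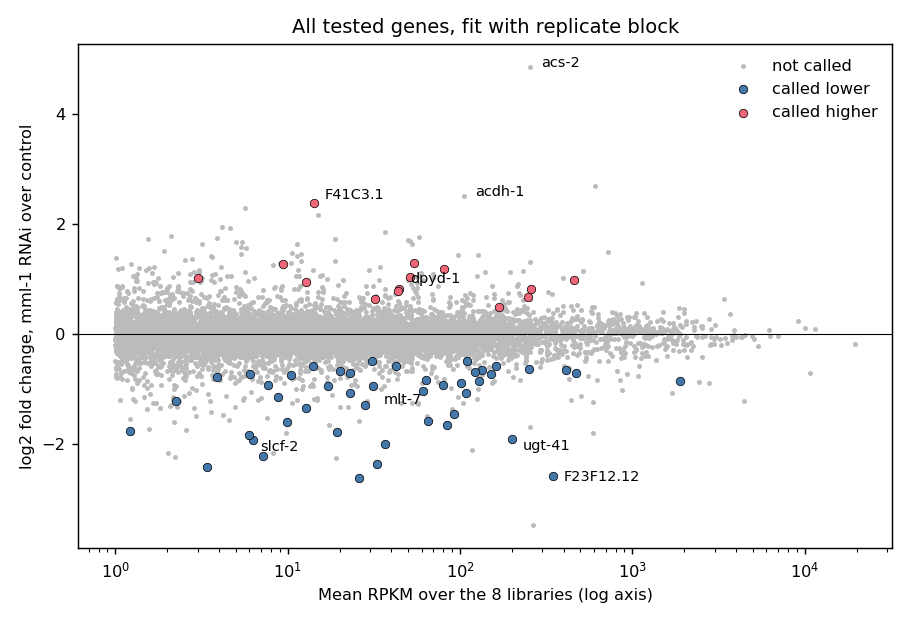
Mean RPKM over the 8 libraries (x axis, log scale) against the log2 fold change of mml-1 RNAi over control (y axis) for the tested genes and loci. Called genes are in red (higher) and blue (lower). Of the 12591 tested, 8 whose names had turned into dates are not drawn. Called genes had control means of 1.62 to 2405 RPKM, with none among the highest genes, and the gene with the largest fold change, acs-2, is not among them.

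Genes for a solute carrier and for glucuronidation enzymes fell. The predicted solute carrier slcf-2 (chromosome X, 3393862 to 3397657) stood at 10.5, 9.43, 10.02 and 9.68 RPKM in control replicates 1 to 4. On mml-1 RNAi it stood at 1.71, 1.63, 2.11 and 2.94 RPKM. The highest mml-1 RNAi library was thus far below the lowest control. It fell by 1.83 on the log2 scale (SE 0.13, adjusted p = 0.0278 in limma). Its mean was 2.06 ± 0.339 RPKM on mxl-2 RNAi and 1.301 ± 0.335 RPKM in TU3401 (SD, n = 4), against 9.91 ± 0.463 in the control. None of the other 17 tested sugar and organic anion carriers was called, where 0.477% of all tested genes were, and the median of all 18 was -0.11. An exon of slcf-2 overlaps the gene cht-1 on the other strand by 45 bases, and no source used here gives the strandedness of the libraries.

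Of 58 tested UDP-glucuronosyltransferase genes, whose products attach sugar acids to small molecules, ugt-41 and ugt-27 fell and none rose. Over all tested genes 0.365% fell and 0.111% rose, so most lists of this size would hold no gene that rose. The gene ugt-41 (chromosome V, 7161068 to 7163595) held 402, 255, 334 and 272 RPKM in the control and 99.3, 49.4, 89.5 and 102 RPKM on mml-1 RNAi, a log2 fold change of -1.91 (SE 0.15, adjusted p = 0.0288 in limma). The lower-expressed ugt-27 (chromosome I, 4724065 to 4726771) ranged from 9.01 to 14.6 RPKM in the control and from 3.55 to 6.64 RPKM on mml-1 RNAi, a log2 fold change of -1.15 (SE 0.09, adjusted p = 0.0288 in limma). In both genes the groups did not overlap. The family had a median log2 fold change of -0.09, with 33 of 58 members below 0. Its uncalled members went both ways: ugt-32 lay at -2.25 (adjusted p = 0.0719 in limma) and ugt-12 of -1.27 (adjusted p = 0.0575 in limma), and their groups did not overlap. By contrast ugt-33 was at 1.71, 1.61, 1.27 and 1.05 RPKM in the control and 10.3, 4.88, 5.34 and 2.87 RPKM on mml-1 RNAi (log2 fold change 1.41, adjusted p = 0.0573 in limma).

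A gene of trehalose synthesis and an esterase gene of the gut fell. The trehalose-6-phosphate synthase gene tps-2 (chromosome II, 14600902 to 14610554), whose product acts in the synthesis of the disaccharide trehalose, was at 129, 148, 120.4 and 129 RPKM in the control. On mml-1 RNAi it was at 61.4, 74.8, 59.8 and 88.8 RPKM, so that replicate 4 was the highest and still under every control. Its log2 fold change was -0.89 (SE 0.10, adjusted p = 0.0397 in limma). The gene tps-2 was the only call among 39 of glycolysis and sugar metabolism (median 0.04) and among 28 DAF-16 targets (median -0.07). Over all tested genes 0.477% were called. The gut esterase gene ges-1, a marker of the intestine, held 110, 137, 140.1 and 124 RPKM in the control and 72.1, 103, 97.7 and 89.7 RPKM on mml-1 RNAi (log2 fold change -0.50, SE 0.06, adjusted p = 0.0466 in limma). It was the only one of 27 tested intestine genes that was called, and the list's median was -0.05.

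A pair of lipase genes fell as well. The lysosomal lipase-like gene lipl-2 held 129, 228, 135 and 165 RPKM in the control and 80.1, 128, 93.9 and 109 RPKM on mml-1 RNAi (log2 fold change -0.66, SE 0.07, adjusted p = 0.0383 in limma). The highest mml-1 RNAi library, replicate 2, was just under the lowest control. The fasting-induced lipase gene fil-1 went from a mean of 13.5 ± 8.96 to 7.51 ± 4.69 RPKM (SD, n = 4). Its groups overlapped, since replicate 2 was high in both, and within pairs the log2 fold change was -0.75 (SE 0.09, adjusted p = 0.0466 in limma). The pantothenate kinase gene pnk-1, which starts the synthesis of coenzyme A, fell from 502 ± 97.9 to 321 ± 59.9 RPKM. Its log2 fold change was -0.64, with an adjusted p of 0.04998 in limma, just under the threshold.

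Among 8 tested heme peroxidase and dual oxidase genes mlt-7 alone was called, where 0.477% of all tested genes were. It codes for a heme peroxidase that cross-links the cuticle and is needed for molting (chromosome II, 4393007 to 4404850). It held 40.5, 37.7, 38.03 and 46.9 RPKM in the control and 21.5, 17.5, 16.16 and 30.3 RPKM on mml-1 RNAi. Replicate 4 was the highest library of both groups, and the groups did not overlap. The fitted log2 fold change was -0.94 (SE 0.10, adjusted p = 0.0383 in limma). With median-ratio scaling the limma adjusted p was 0.0522. The peroxidase gene skpo-1 (log2 fold change -0.27, adjusted p = 0.16 in limma) and tsp-15, which codes for a tetraspanin that works with the dual oxidase (-0.35, adjusted p = 0.128 in limma), had groups that did not overlap but were not called. The dual oxidase gene bli-3 lay at -0.02, and the median of the 8 was -0.09.

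Cuticle collagens fell in 2 of 67 cases, where 0.365% of all tested genes fell, and the family's median was 0.00. The gene col-183 held 104.3, 94.5, 150.1 and 39.6 RPKM in the control and 44.2, 35.1, 40.4 and 10.5 RPKM on mml-1 RNAi (log2 fold change -1.58, SE 0.13, adjusted p = 0.0288 in limma). The gene col-36 held 4.27, 7.25, 13.99 and 16.38 RPKM against 0.450, 1.08, 2.11 and 4.86 RPKM (log2 fold change -1.92, SE 0.13, adjusted p = 0.0278 in limma). In both genes the groups overlapped and every mml-1 RNAi library was below the control of its own number. In TU3401 both were nearly unread, at 0.216 ± 0.188 and 0.0352 ± 0.0446 RPKM (SD, n = 4).

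The gene gpa-10, which codes for an alpha subunit of the G proteins that relay signals from receptors, also fell. It held 3.59, 4.81, 3.19 and 2.67 RPKM in the control and 1.31, 0.894, 0.729 and 0.891 RPKM on mml-1 RNAi, without overlap, from 361 reads over the control and 91 over the mml-1 RNAi libraries. Its log2 fold change was -1.21 (SE 0.15, adjusted p = 0.0466 in limma). The trypsin-like protease gene try-9 and the bestrophin channel gene best-5 fell by 0.73 and 0.57 on the log2 scale. The gene pas-6, which codes for an alpha subunit of the 20S proteasome, fell from 150.5 ± 22.7 to 92.5 ± 10.3 RPKM. Its log2 fold change was -0.69, with an adjusted p of 0.04998 in limma, just under the threshold. It was higher in TU3401, at 351 ± 20.7 RPKM, while the TU3401 mean was under the control mean in 43 of the 45 genes that fell and in 7196 of all 12591 tested. Genes that fell were called against the same control libraries, so the first of these counts is a description only.

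The deepest falls were in genes without a common name. F23F12.12 (chromosome III, 6508132 to 6509499) held 732, 660.1, 485 and 469 RPKM in the control and 95.2, 88.6, 61.0 and 161 RPKM on mml-1 RNAi, a log2 fold change of -2.58 (SE 0.27, adjusted p = 0.0397 in limma). F01F1.14 (chromosome III, 5882319 to 5882923) held 39.9, 16.12, 65.5 and 58.0 RPKM against 4.52, 2.27, 6.37 and 13.9 RPKM (log2 fold change -2.61, SE 0.20, adjusted p = 0.0288 in limma), and its exons overlap those of hpo-10 on the other strand. In both genes replicate 4 was the highest mml-1 RNAi library, and neither had overlapping groups. F36H12.3 held 2.52, 6.73, 8.21 and 7.94 RPKM in the control, from 626 reads, and 0, 0, 0.0430 and 1.70 RPKM on mml-1 RNAi, from 44 reads. Nearly all of the latter were in replicate 4. The log2 fold change of F36H12.3 was -2.41, with an adjusted p of 0.04998 in limma, just under the threshold. The phosphoglycolate phosphatase homolog pgph-3, listed as C53A3.2, held 103, 171, 111.8 and 123 RPKM in the control and 25.5, 41.5, 37.3 and 58.5 RPKM on mml-1 RNAi (log2 fold change -1.65, SE 0.17, adjusted p = 0.0383 in limma).

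The other deep falls were of the same kind. F15E6.10 held 85.8, 62.7, 39.1 and 29.4 RPKM in the control and 27.7, 12.59, 3.62 and 4.29 RPKM on mml-1 RNAi. CD4.5, which was not matched to the annotation, held 5.35, 19.7, 11.9 and 13.1 RPKM against 0.752, 1.81, 1.26 and 3.54 RPKM (log2 fold change -2.22). C07B5.8 held 88.96, 67.9, 45.9 and 35.7 RPKM against 15.8, 21.1, 8.68 and 10.6 RPKM (log2 fold change -1.998). In these 3 genes every mml-1 RNAi library was under every control. T22B7.3 held 42.5, 25.7, 24.2 and 27.8 RPKM against 10.9, 8.26, 3.99 and 10.2 RPKM (log2 fold change -1.77), again without overlap. C08E8.10 held 201, 144, 98.9 and 79.7 RPKM against 109, 52.8, 26.8 and 24.1 RPKM (log2 fold change -1.46), and ZK355.3 held 13.4, 18.4, 32.5 and 8.99 RPKM against 4.30, 9.67, 12.7 and 1.95 RPKM (log2 fold change -1.34). Both genes had overlapping groups and fell within every pair. Of the 45 genes that fell 24 had a current name with a dot, the form of a sequence name, as had 5191 of all 12591 tested. That form is shared by some true symbols, such as slc-9B.1. CD4.5 and Y6G8.9 had no current name and are not among the 24. For 8 of the 45 (17.8%) the coding length was under 300 bases, against 10.2% of all tested. The latter include 281 piRNA loci of 21 bases, which the 45 leave out.

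**Figure D3:**
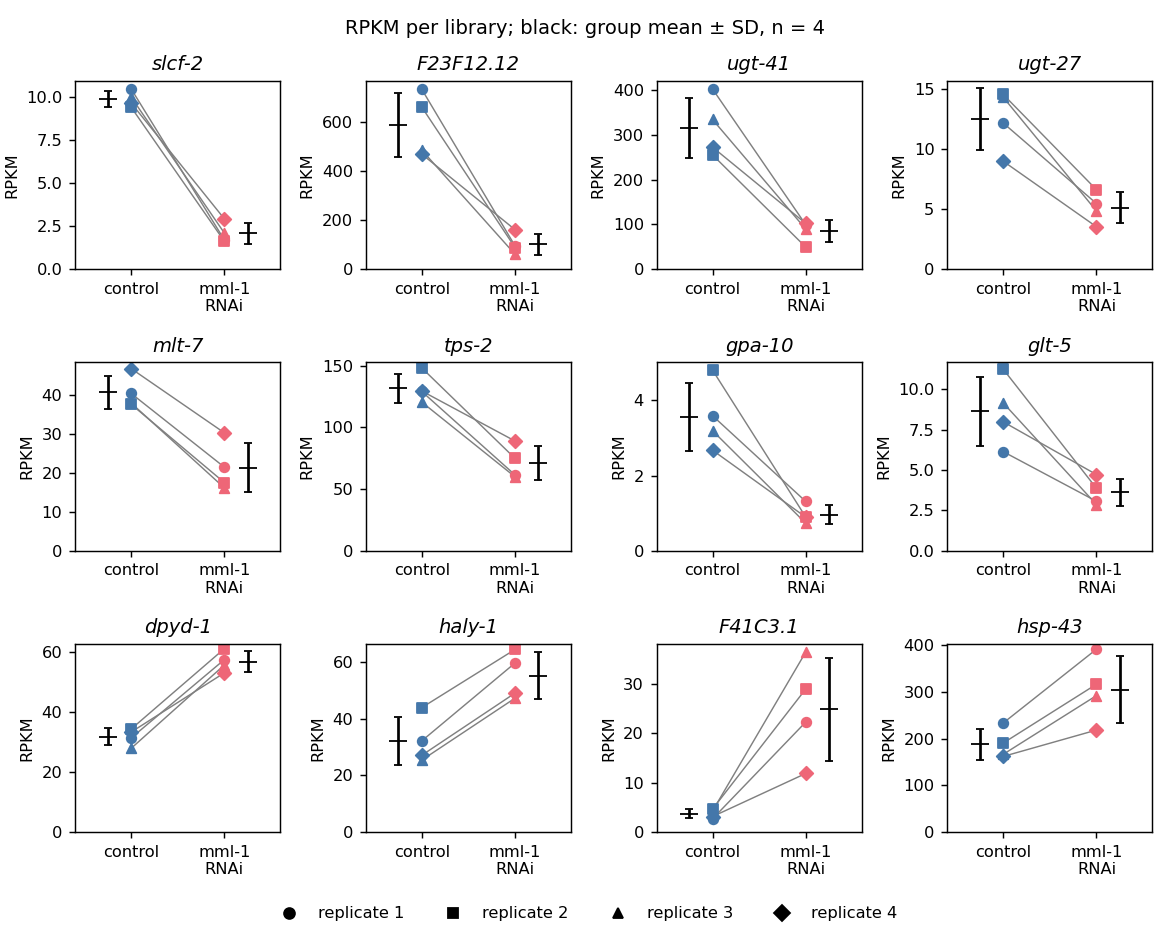
RPKM per library (y axis, linear from 0) in control (blue) and mml-1 RNAi (red) libraries for 12 genes, with lines joining libraries of the same number and black bars giving the mean and SD of 4 libraries. All but glt-5 were called. The mml-1 RNAi libraries of slcf-2 lie at 1.63 to 2.94 RPKM, under controls at 9.43 to 10.5, and replicate 4 (diamonds) shows the smallest step in slcf-2, F23F12.12, tps-2 and hsp-43.

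The genes that rose included enzymes that break down amino acids and pyrimidines. The dihydropyrimidine dehydrogenase gene dpyd-1 (chromosome X, 5467870 to 5472683), which starts the breakdown of uracil and thymine, held 31.3, 34.3, 27.8 and 33.2 RPKM in the control and 57.4, 61.1, 55.6 and 53 RPKM on mml-1 RNAi. The groups were wide apart and each was tight. The log2 fold change was 0.83 (SE 0.07, adjusted p = 0.0288 in limma), and the mean on mxl-2 RNAi was 57.01 ± 6.85 RPKM (SD, n = 4). The next enzymes of the same pathway were not called: dhp-1 and dhp-2 (dihydropyrimidinases) had log2 fold changes of -0.16 and -0.28, and upb-1 (beta-ureidopropionase) of 0.04.

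The histidine ammonia-lyase gene haly-1 (chromosome X, 10893567 to 10896598), which starts histidine breakdown, held 32.2, 43.95, 25.4 and 27.1 RPKM in the control and 59.7, 64.5, 47.3 and 49.1 RPKM on mml-1 RNAi. The log2 fold change was 0.78 (SE 0.08, adjusted p = 0.0332 in limma), without overlap between groups. Its exons share 111 bases with F47B10.3 on the other strand. The serine dehydratase gene srdh-1 (listed as K01C8.1) held 205, 167, 185 and 183 RPKM in the control and 376, 324, 349.5 and 267 RPKM on mml-1 RNAi, without overlap (log2 fold change 0.82, SE 0.09, adjusted p = 0.0348 in limma). The arginase gene argn-1 (listed as T21F4.1) held 168, 129, 135 and 126 RPKM in the control and 226, 194, 187 and 179 RPKM on mml-1 RNAi. Its log2 fold change of 0.49 (SE 0.06, adjusted p = 0.0423 in limma) was the smallest of all called, and the groups did not overlap.

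The small heat shock protein gene hsp-43 rose, with 234, 191, 167 and 162 RPKM in the control and 392, 317, 292 and 219 RPKM on mml-1 RNAi (log2 fold change 0.68, SE 0.08, adjusted p = 0.0423 in limma). Control replicate 1 was above mml-1 RNAi replicate 4, so the groups overlapped. It was the only call among 28 heat shock and unfolded protein genes, whose median was -0.08, where 0.477% of all tested genes were called. The largest rise was that of F41C3.1 (chromosome II, 4752307 to 4752991), from 2.65, 4.62, 4.22 and 3.11 RPKM in the control to 22.2, 28.9, 36.4 and 11.8 RPKM on mml-1 RNAi. Its log2 fold change was 2.39 (SE 0.20, adjusted p = 0.0317 in limma), and it was at 1.47 ± 0.493 RPKM in TU3401. The genes drd-50 and drd-1, named for their fall under dietary restriction, rose by 1.29 and 1.04 on the log2 scale, and the sodium/proton exchanger gene slc-9B.1 by 0.64.

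The first of these, drd-50, held 29.6, 41.04, 21.3 and 28.3 RPKM in the control and 78.2, 126, 53.3 and 54.8 RPKM on mml-1 RNAi, without overlap. The gene drd-1 held 50.2, 23.4, 32.8 and 26.8 RPKM against 94.2, 41.1, 78.9 and 63.9 RPKM, and its groups overlapped because control replicate 1 was high. B0496.11 was read 30 times over the control and 76 times over the mml-1 RNAi libraries. Its log2 fold change was 1.02, with an adjusted p of 0.04998 in limma, just under the threshold. F49F1.5 held 2.72, 11, 2.97 and 4.02 RPKM against 6.01, 24.9, 11 and 12.7 RPKM (log2 fold change 1.27), with replicate 2 the highest of both groups. F32D8.12 held 62.1, 81.7, 27.4 and 33.4 RPKM against 132, 149, 89.6 and 74.2 RPKM (log2 fold change 1.19), F15E6.4 held 436, 332, 262 and 191 RPKM against 924, 597, 606 and 331 RPKM, and T07D3.9 held 15.4, 6.54, 5.08 and 7.14 RPKM against 28.8, 13.8, 10.5 and 15.3 RPKM (log2 fold change 0.94). In these 4 genes the groups overlapped, and every pair was higher on mml-1 RNAi. An exon of F32D8.12 shares 387 bases with F32D8.11 on the same strand, the longest such overlap among called genes. On the other strand col-183 shares 124 bases with F02D10.10, srdh-1 107 with K01C8.2 and F23F12.12 55 with acr-5. Not every overlap of a called gene is listed. Of the 14 genes that rose 5 lie on chromosome X (35.7%), against 7 of the 45 that fell (15.6%) and 15.1% of all tested genes.

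**Figure D4:**
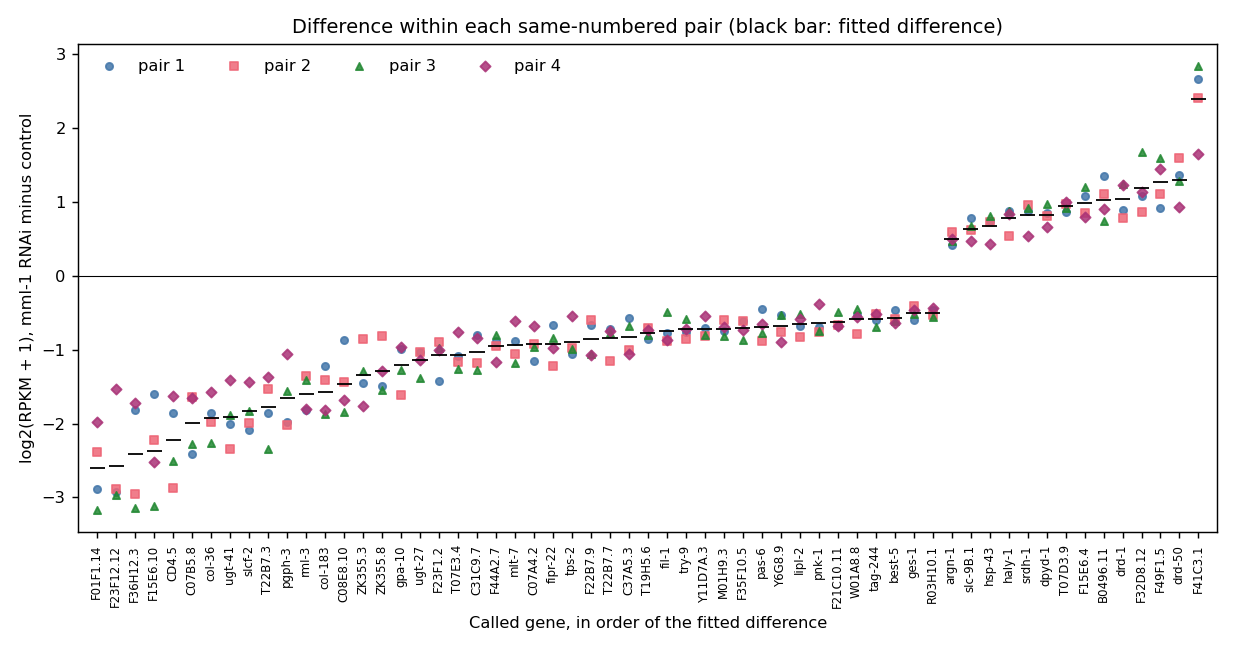
Difference in log2(RPKM + 1) between the mml-1 RNAi and control library of each pair (y axis, symbols by pair) for the called genes other than the piRNA locus, in order of the fitted difference (black bars). Every symbol of a gene lies on the same side of 0, which the call from these same pairs nearly ensures. The differences of pair 4 are often the nearest to 0 among the genes with large falls.

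Several called genes are neighbours, and neighbours did not always move together. C37A5.3 and fipr-22 lie 133 bases apart on chromosome I and both fell, ZK355.3 and ZK355.8 lie 171 bases apart on chromosome II and both fell, T22B7.3 and T22B7.7 lie 1647 bases apart on chromosome X and both fell, and drd-50 (F49F1.1) and F49F1.5 lie 281 bases apart on chromosome IV and both rose. F15E6.4 rose, with a log2 fold change of 0.98, while F15E6.10, which lies 994 bases away on the same strand, had a fold change of -2.37 on that scale. On chromosome X hsp-43 rose and rml-3 (C14F11.6), 2580 bases away on the same strand, fell (log2 fold change -1.59). The latter ranged from 5.41 to 20.4 RPKM in the control and from 0.815 to 6.36 RPKM on mml-1 RNAi, and control replicate 1, the lowest, lay among the mml-1 RNAi libraries.

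The series names a glutamate transporter, autophagy and peroxidase activity in its title, and of the genes listed for these processes mlt-7 alone was called. Of 9 glutamate transport genes none was called, against 0.477% of all tested genes, with a median of -0.11. Lists this short would rarely hold a call, so these counts say little about the processes. The gene glt-5 (chromosome II, 9706481 to 9708885), which codes for a glutamate transporter of the plasma membrane, held 6.14, 11.2, 9.16 and 7.99 RPKM in the control and 3.06, 3.86, 2.85 and 4.72 RPKM on mml-1 RNAi. All mml-1 RNAi libraries were under all controls. The log2 fold change was -1.05 (95% interval -1.42 to -0.68), and the limma adjusted p of 0.0587 missed the threshold. Its mean was 3.04 ± 1.18 RPKM on mxl-2 RNAi and 2.34 ± 0.563 RPKM in TU3401 (SD, n = 4). The transporter gene glt-1, expressed at far more reads per length, held 229, 217, 228 and 239 RPKM against 263, 258, 264 and 272 RPKM, higher in every pair and without overlap (log2 fold change 0.21, adjusted p = 0.12 in limma). The vesicular transporter gene eat-4 lay at -0.04.

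Of 32 autophagy genes none was called, against 0.477% of all tested genes, and the median was -0.01. The member nearest to a call was atg-2, which codes for a lipid transfer protein of the growing autophagosome. It was at 45.2 ± 15.8 RPKM in the control and 29.3 ± 7.32 RPKM on mml-1 RNAi (SD, n = 4). It was lower in 4 of 4 pairs with overlapping groups (log2 fold change -0.58, adjusted p = 0.0544 in limma). From pairs 1 to 3 alone atg-2 was called (adjusted p = 0.0428 in limma), in a fit added after the data were seen. That fit called 242 of 12562 genes and loci, and atg-2 was the only 1 of the 32 autophagy genes among them. The ubiquitin-like autophagosome gene lgg-1 had a log2 fold change of 0.13 (95% interval -0.03 to 0.28, adjusted p = 0.352 in limma). The TFEB relative hlh-30 had one of 0.09 (95% interval -0.06 to 0.23, adjusted p = 0.482 in limma). Of 72 lysosome genes none was called (median -0.03), nor was any of 33 genes of peroxide removal and thiol redox (median -0.03) or of 24 germline longevity regulators (median 0.00). The FOXO gene daf-16 lay at -0.02 (95% interval -0.26 to 0.21), and reads of sid-1, which may include the neuronal transgene, lay at 0.08 (95% interval -0.09 to 0.24).

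The 5 uncalled genes nearest to the threshold had an adjusted p of 0.0509 in limma. They were F43C9.8 (log2 fold change -1.17, from 23 reads over the control and 4 over the mml-1 RNAi libraries), Y4C6B.2 (-0.94), W04B5.1 (-0.78), C06H2.7 (0.84) and the glycerol-3-phosphate dehydrogenase gene gpdh-3, listed as T25G3.4 (-0.50). The last held 164, 175, 155 and 153 RPKM in the control and 106, 119.8, 113.8 and 116 RPKM on mml-1 RNAi. Its groups did not overlap, nor did those of the others except Y4C6B.2.

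**Figure D5:**
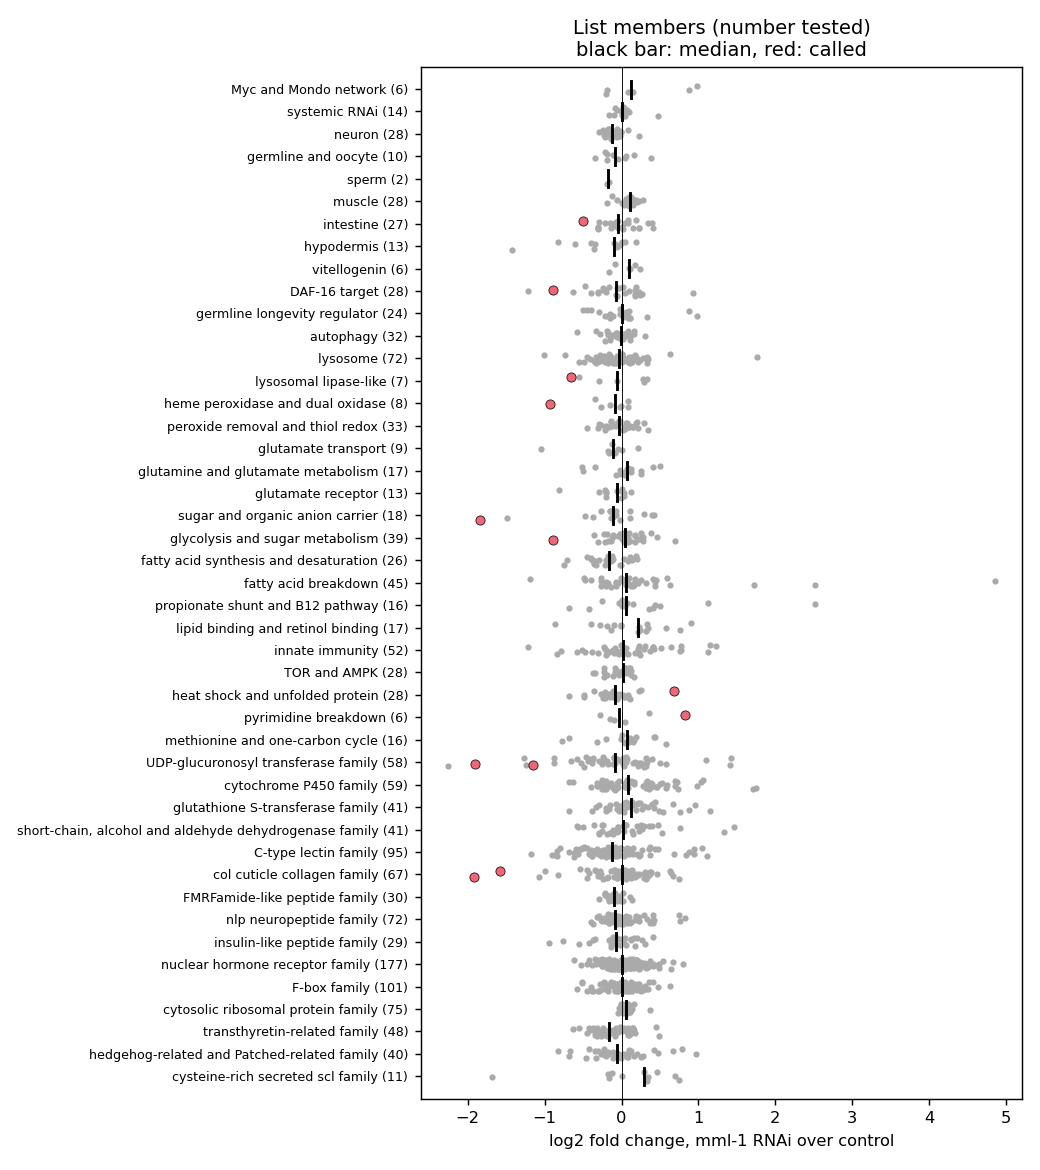
Log2 fold change of mml-1 RNAi over control (x axis) for the tested members of 45 gene lists and families (1 row each, number tested in brackets), with called genes in red and the list's median as a black bar. Medians lie between -0.18 and 0.29, and the single point near 5 is acs-2.

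In all, 10 of the 45 lists held a called gene and 35 held none. With 0.477% of all tested genes called, few calls or none would be counted in lists of this size whatever their genes. Of 28 genes of neurons none was called. Their median was -0.12 and 26 of the 28 were below 0 (92.9%), against 51.3% of all tested genes, and with quantile scaling 23 were below 0 and the median was -0.10. The summed level of the neuron list was 2225 to 2609 RPKM in the control and 2086 to 2243 RPKM on mml-1 RNAi. Within that sum tbh-1 alone had means of 971 RPKM in the control and 834 RPKM on mml-1 RNAi. Pairs 1 to 4 gave list medians of -0.05, -0.23, -0.09 and -0.05, where all tested genes had 0.06, 0.01, -0.06 and -0.04. In pair 4, 18 of the 28 were below 0, as were 7329 of all 12591 tested, so the shift was not even over pairs. Of 30 FMRFamide-like peptide genes, also neuronal, none was called, with a median of -0.10. Muscle genes had a median of 0.11, with 25 of 28 above 0 and a summed level of 12770 to 14080 RPKM in the control and 13590 to 15520 RPKM on mml-1 RNAi. Intestine genes summed to 14420 to 17170 RPKM and 12860 to 16520 RPKM. In the fit of all 4 pairs cytosolic ribosomal protein genes were as one-sided as neuron genes, with 70 of 75 above 0 and a median of 0.06. Pairs 1 to 4 gave this list medians of 0.06, -0.02, 0.16 and 0.06, and in pair 2 more were below 0 (45) than above (30). The part of these shifts in the called genes was not tested.

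Fatty acid synthesis and desaturation genes had a median of -0.16 with 20 of 26 below 0 and no call. Of 45 genes of fatty acid breakdown none was called (median 0.06), yet the largest fold change of all 12591 genes was in this list. The acyl-CoA synthetase gene acs-2 (chromosome V, 15567394 to 15569897), which activates fatty acids for mitochondrial oxidation and is known to rise on fasting, held 10.3, 29.6, 2.41 and 10.8 RPKM in the control. On mml-1 RNAi it held 739, 759.8, 461 and 36.8 RPKM. The libraries labelled mml-1 RNAi were all above all controls, and replicate 4 was far below the other 3. The log2 fold change was 4.86 (SE 0.88, 95% interval 2.64 to 7.08) and the limma adjusted p was 0.0848. The acyl-CoA dehydrogenase gene acdh-1, whose level in worms is known to depend on vitamin B12, held 67.02, 8.36, 23.7 and 30.5 RPKM against 95.3, 82.5, 194 and 339.7 RPKM (log2 fold change 2.52, adjusted p = 0.101 in limma). Here replicate 4 was the highest of its group. The lysozyme gene lys-7 held 5887, 6404, 5653 and 5879 RPKM in the control and 1590.0, 2817, 1731 and 5491 RPKM on mml-1 RNAi (log2 fold change -1.22, adjusted p = 0.135 in limma).

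Pair 4 had the smallest differences over the whole transcriptome. Over the 12591 tested genes, the slope of a pair's differences on the mean of the other 3 was 0.65, 0.66 and 0.65 for pairs 1 to 3 and 0.25 for pair 4. The SD of the differences was 0.48, 0.47, 0.44 and 0.35. Without both libraries of pair 4, an alternative chosen after seeing the data, limma called 242 genes and loci, 129 of them lower, and 49 were among the 60. These include piRNA loci, which also enter the shares and medians that follow. In the left-out pair 4, 85 of those called higher were also higher and 115 of the 129 also lower (82.6% with the same sign, against 59.4% of all tested genes). Their median log2 difference there was 0.20 and -0.33, where it had been 0.92 and -0.88 in pairs 1 to 3. They were called for large and even differences in pairs 1 to 3. A smaller difference in a left-out pair is thus partly given by the call, and how much of the drop is particular to pair 4 was not tested.

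The genes called from pairs 1 to 3 included glt-5 (log2 fold change -1.18, adjusted p = 0.0440 in limma), acs-2 (5.92, adjusted p = 0.0297 in limma) and lys-7 (-1.59, adjusted p = 0.0341 in limma). The examples that follow were chosen after their values were seen. The gene gfat-1, which codes for the enzyme that opens the hexosamine pathway by joining glutamine nitrogen to fructose 6-phosphate, held 162, 209, 213 and 169 RPKM in the control. On mml-1 RNAi it held 28.7, 37.5, 36.9 and 82.4 RPKM (log2 fold change -2.47 from pairs 1 to 3, adjusted p = 0.00208 in limma). Every mml-1 RNAi library was under every control, and pair 4 had a smaller difference of -1.03. The alcohol dehydrogenase gene sodh-1 held 180.0, 188, 62.7 and 92.9 RPKM in the control and 1273, 1775, 1114 and 143 RPKM on mml-1 RNAi (log2 fold change 3.39, adjusted p = 0.0296 in limma). The citrate synthase gene cts-1 held 270.2, 296, 206 and 235.4 RPKM against 575, 685, 602 and 279 RPKM (1.28, adjusted p = 0.0277 in limma), and the glyoxylate cycle gene icl-1 held 1001, 981, 530.1 and 513 RPKM against 2102, 1915, 1504 and 589 RPKM (1.18, adjusted p = 0.0353 in limma). In these genes replicates 1 to 3 on mml-1 RNAi were above all controls of the same numbers, and pair 4 differed by 0.20 to 0.61.

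In other genes pair 4 turned or was close to level. The aquaglyceroporin gene aqp-1 held 47.9, 74.5, 46.9 and 88.3 RPKM in the control and 183, 282, 218 and 72.6 RPKM on mml-1 RNAi (log2 fold change 2.004 from pairs 1 to 3, adjusted p = 0.009997 in limma), with pair 4 at -0.28. The triglyceride synthesis gene dgat-2 held 169, 143, 179.7 and 168 RPKM against 82.4, 84.9, 82.3 and 158 RPKM (-0.96, adjusted p = 0.0341 in limma), with pair 4 at -0.09. In both genes replicate 4 on mml-1 RNAi lay within the range of the controls.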

How the data were processed

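Whole-body RNA of 8 libraries was compared, 4 per group. The authors deposited RPKM values per library, per the file headers. Per the submitters' processing notes, bcl2fastq, TopHat2 2.1.1 and GRCh38, a human build, were named. No source used here gives the worm build or the counting tool. The log2 fold changes, p-values and false discovery rates that the authors deposited were not used. Names were matched to the Ensembl annotation of WBcel235, the source of all coordinates (38832 by symbol, 2309 by sequence name, 896 not matched, 11 turned into dates). Whole reads were recovered for 25332 of 25332 loci above 0 (tolerance 0.001 read), with coding lengths (91.9% multiples of 3). They served for depth and for the voom alternative, and, with no molecular identifiers, a read need not be an independent molecule.

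Values were tested with limma 3.58.1 (R 4.3.3) on log2(RPKM + 1), for genes with a mean of at least 1 RPKM over the 8 libraries (lmFit, eBayes with trend and robust variances, 2-sided, Benjamini-Hochberg adjusted p under 0.05), with the replicate number as a block. The code was tested on simulated data. The numbers come from the titles, and same-numbered libraries deviated together from their group means (r = 0.61, 0.50, 0.29 and 0.57 for numbers 1 to 4, against -0.46 to 0.27 for different numbers), so they were taken as pairs. Named by rule were called genes (per-library values for the 15 lower and 10 higher ones with the largest fold changes and for called list members), the 5 uncalled genes nearest to the threshold, and mml-1, mxl-2, slcf-2, glt-5, mlt-7, lgg-1, hlh-30, daf-16 and sid-1. Other uncalled list members were named after their values were seen. The comparison, the gene lists and the rules were chosen with earlier results of these data known. Lists are described by counts and medians. The comparisons with mxl-2 RNAi and TU3401 share the control libraries and are given as values alone. Promoter sequences were not used here.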

Additional observations from a re-analysis of the deposited data

Results flagged for a closer look

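In 71 genes, each in both groups of 4 libraries, the highest or lowest library was compared with the rest of its group. In 4 groups it lay farther out than Dixon's critical value allows, where chance gives about 1 in 20 groups. F36H12.3 was at 1.70 RPKM in mml-1 RNAi replicate 4 and at 0 to 0.0430 RPKM in the other 3. F49F1.5 was at 11 RPKM in control replicate 2 and at 2.72 to 4.02 RPKM in the other controls. Reads of mml-1 were at 91.5 RPKM in mml-1 RNAi replicate 2, against 22.9 to 28.9 RPKM in the other 3. Reads of mxl-2 were at 308.3 RPKM in mml-1 RNAi replicate 3, against 25.4 to 26.98 RPKM in the other 3.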

How the results depend on the processing

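Counts of calls were 14 higher and 46 lower with the replicate block, and none of the called genes changed sign in the alternatives run. The uncalled daf-16 lay on both sides of 0, from -0.13 to 0.03 over the blocked fits. Without the block limma called 0 higher and 2 lower. With the block and no filter on low values it called 0 and 0 of 23303 loci (2639 at unadjusted p under 0.05), where many more loci were tested. A minimum mean of 5 RPKM gave 38 and 110, quantile scaling 12 and 29, median-ratio scaling 9 and 27, one fit of the 3 germline-less groups 205 and 412, and voom on the recovered reads 154 and 313. Pseudocounts of 0.1 and 5 and library weights left both counts within 1.5 times. Of the 60 calls 58 were shared with voom, 56 with the fit of 3 groups, 40 with quantile and 36 with median-ratio scaling. Leaving out 1 library with the block gave 0 to 116 higher and 0 to 130 lower, and without the block 0 to 27 higher and 0 to 26 lower. In a blocked fit the partner of a left-out library adds nothing. The fits without replicate 4 lie at the high end, as does the fit without both libraries of pair 4, which was added after seeing the data. The cause of these changes was not tested. With 4 pairs and adjustment over all genes, a gene that misses the threshold is not shown to be level, and low genes such as gpa-10 rest on few reads.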
